A study of Homo sapiens with 2 samples.

Results

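The Wnt ligands, their receptors and the beta-catenin pathway were described as 41 genes, chosen by name from the 58735 genes of a count table. Its 2 libraries, siControl and siCYP4F11, come from NCI-H460, an established human line of large cell lung carcinoma that the labels trace to a pleural effusion. The siCYP4F11 cells had received a lipid-delivered siRNA against CYP4F11, a fatty acid hydroxylase of the cytochrome P450 family, and are labelled as a CYP4F11 knockdown. The siControl cells, labelled WT, had received no such siRNA. RNA was taken 24 h after transfection, and both libraries carry the same batch label. The design text of the series instead writes NCI-H469. The labels do not say what, if any, control siRNA the siControl cells were given. With 1 library in each group no difference has a replicate check and no test of the conditions exists, so each value compares these 2 libraries.

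Wnt proteins are secreted lipid-bearing ligands that bind Frizzled receptors together with LRP5 or LRP6. Without a ligand, a complex of AXIN, APC, casein kinase 1 and GSK3 marks beta-catenin for breakdown. With a ligand, Dishevelled proteins recruit this complex to the receptor, beta-catenin builds up, and with TCF/LEF factors it switches on target genes that include several inhibitors of the pathway. Ligands such as WNT5A can also act without beta-catenin, on cell polarity and movement.

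The siControl library held 16207785 counts and the siCYP4F11 library 13002179. CYP4F11 itself had 3180 counts in siControl and 972 in siCYP4F11, a log2 ratio of -1.40 (95% counting interval -1.51 to -1.30). Of the 5 markers of an epithelial carcinoma line, the keratins were abundant. Their log2 ratios were -0.30 for KRT8, -0.29 for KRT19 and -0.08 for KRT18, all with intervals below 0. After the correction for GC content described below, KRT8 was at -0.21, KRT19 at -0.16 and KRT18 at 0.005 (-0.05 to 0.05). EPCAM had 6 and 8 counts and CDH1 had 1 and 0, siControl first. Of 6 leukocyte markers none had more than 1 count, and of 5 endothelial markers none had more than 6. Of 6 fibroblast markers, 5 averaged at least 1 CPM, a library-scaled read count, and their levels summed to 77.9 CPM for siControl and 87.2 CPM for siCYP4F11. Most of that sum was COL3A1, at 56.5 and 57.4 CPM. LUM was at a log2 ratio of 0.59 (0.32 to 0.86) and DCN at 0.77 (0.01 to 1.56). After the same GC correction LUM was at 0.44 (0.17 to 0.71) and DCN at 0.65 (-0.11 to 1.44). COL1A1, at 0.26 (-0.47 to 0.998), and PDGFRB, at 0.16 (-0.35 to 0.66), had intervals that included 0. COL1A2 had 4 counts in siControl and 0 in siCYP4F11. The part of these markers in the results below was not tested.

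Levels are given as CPM, each count divided by the scaled library size in units of 1e+06 reads, and as CPM per kilobase of gene model (RPKM) where genes are compared with each other. A gene was measured when its mean over both libraries was at least 1 CPM. A call of higher or lower needed a log2 ratio of siCYP4F11 over siControl of 1 or more in size, with a 95% counting interval that excluded 0. These intervals cover counting error only. Of the 41 members, 31 were measured, 7 had between 1 and 15 counts in each library, and 3 had 0 reads in both.

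Most of the pathway had nearly the same mRNA level in both libraries. By the 2-fold rule 1 of the 31 measured members was lower and 0 were higher. Over all 13942 measured genes 1.26% were called lower and 0.703% higher, 1.96% in either direction. The 1 member called was AXIN2, a feedback target of beta-catenin with few reads. With a 1.5-fold threshold and the same interval, FZD4 and DKK1 joined AXIN2 on the lower side, so 3 members were lower, where 3.44% of all measured genes were, and 0 were higher, where 2.04% were. In either direction 5.47% of all measured genes passed this rule. The counting interval lay wholly below 0 for 9 members and wholly above 0 for 2, against 19.2% and 18.6% of all measured genes. The median log2 ratio of the measured members was -0.05, and that of all measured genes was -0.005. A count or median over measured members is a description, since AXIN2 was below 1 CPM in siCYP4F11 and passed the filter through its siControl level.

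**Figure D1:**
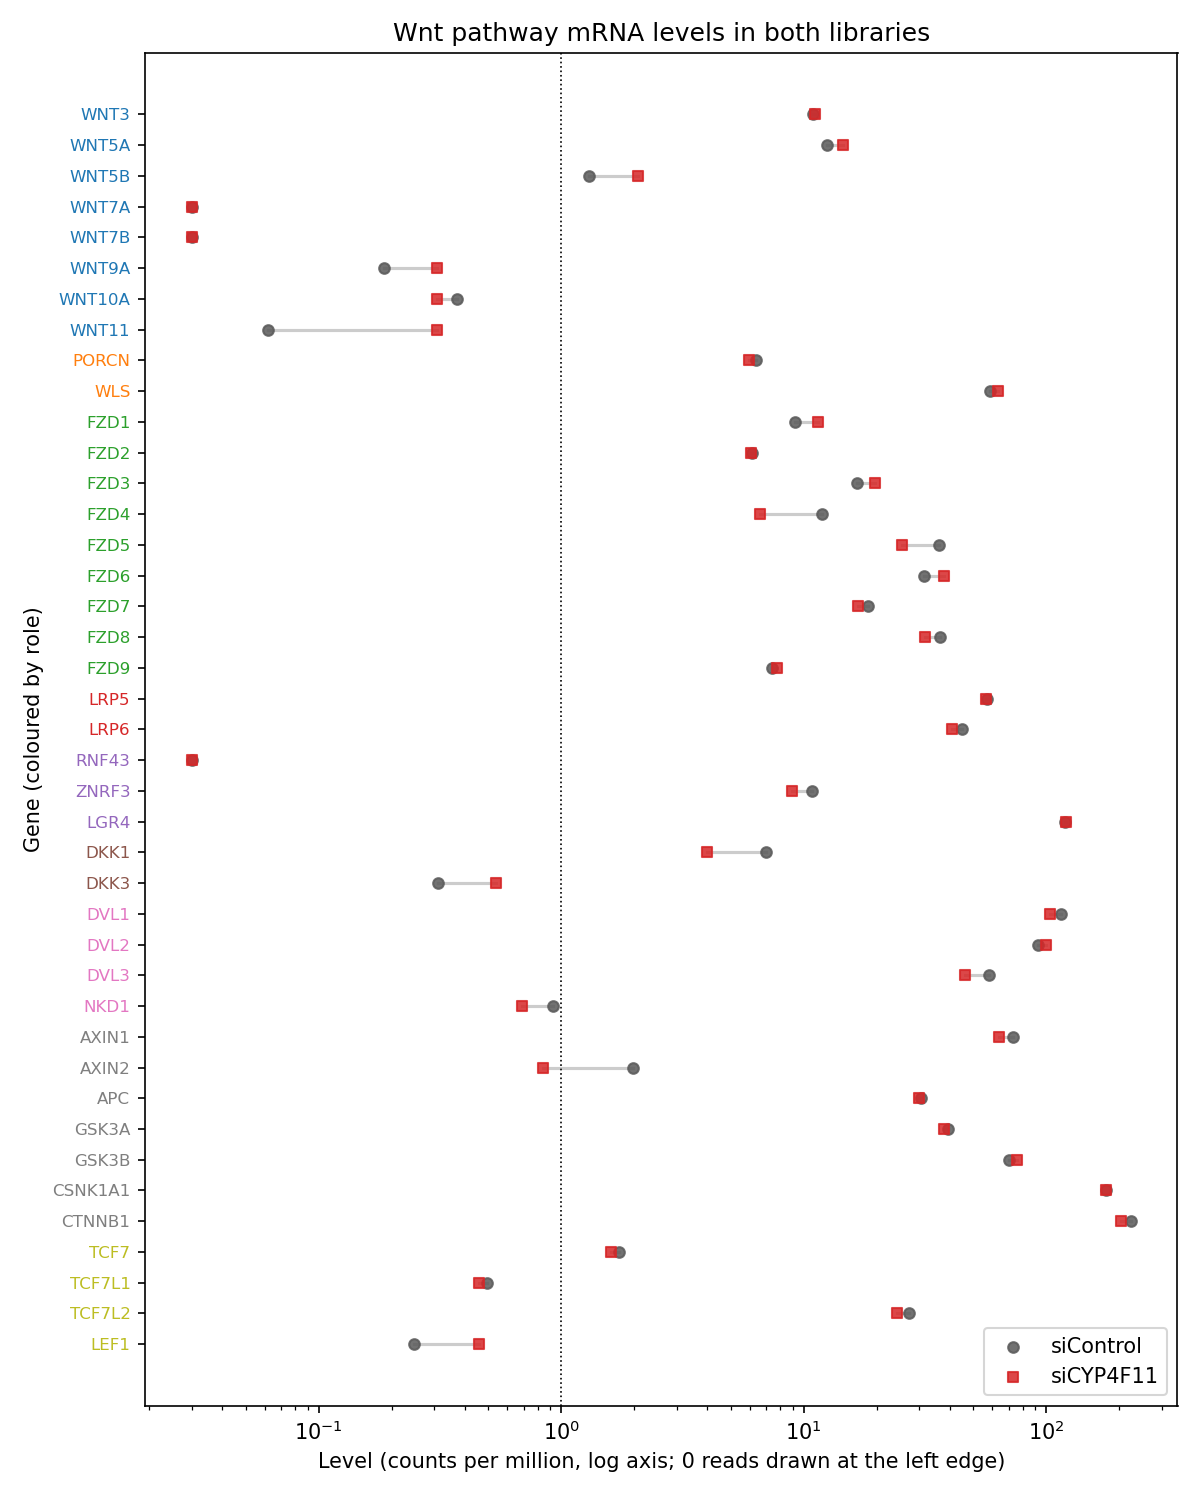
Level of each of the 41 members in both libraries, in CPM on a log axis, with gene names coloured by role and the dotted line at 1 CPM. Members with 0 reads (WNT7A, WNT7B and RNF43) are drawn at the left edge; FZD4, DKK1 and AXIN2 show the widest gaps to the left among the measured members.

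**Figure D2:**
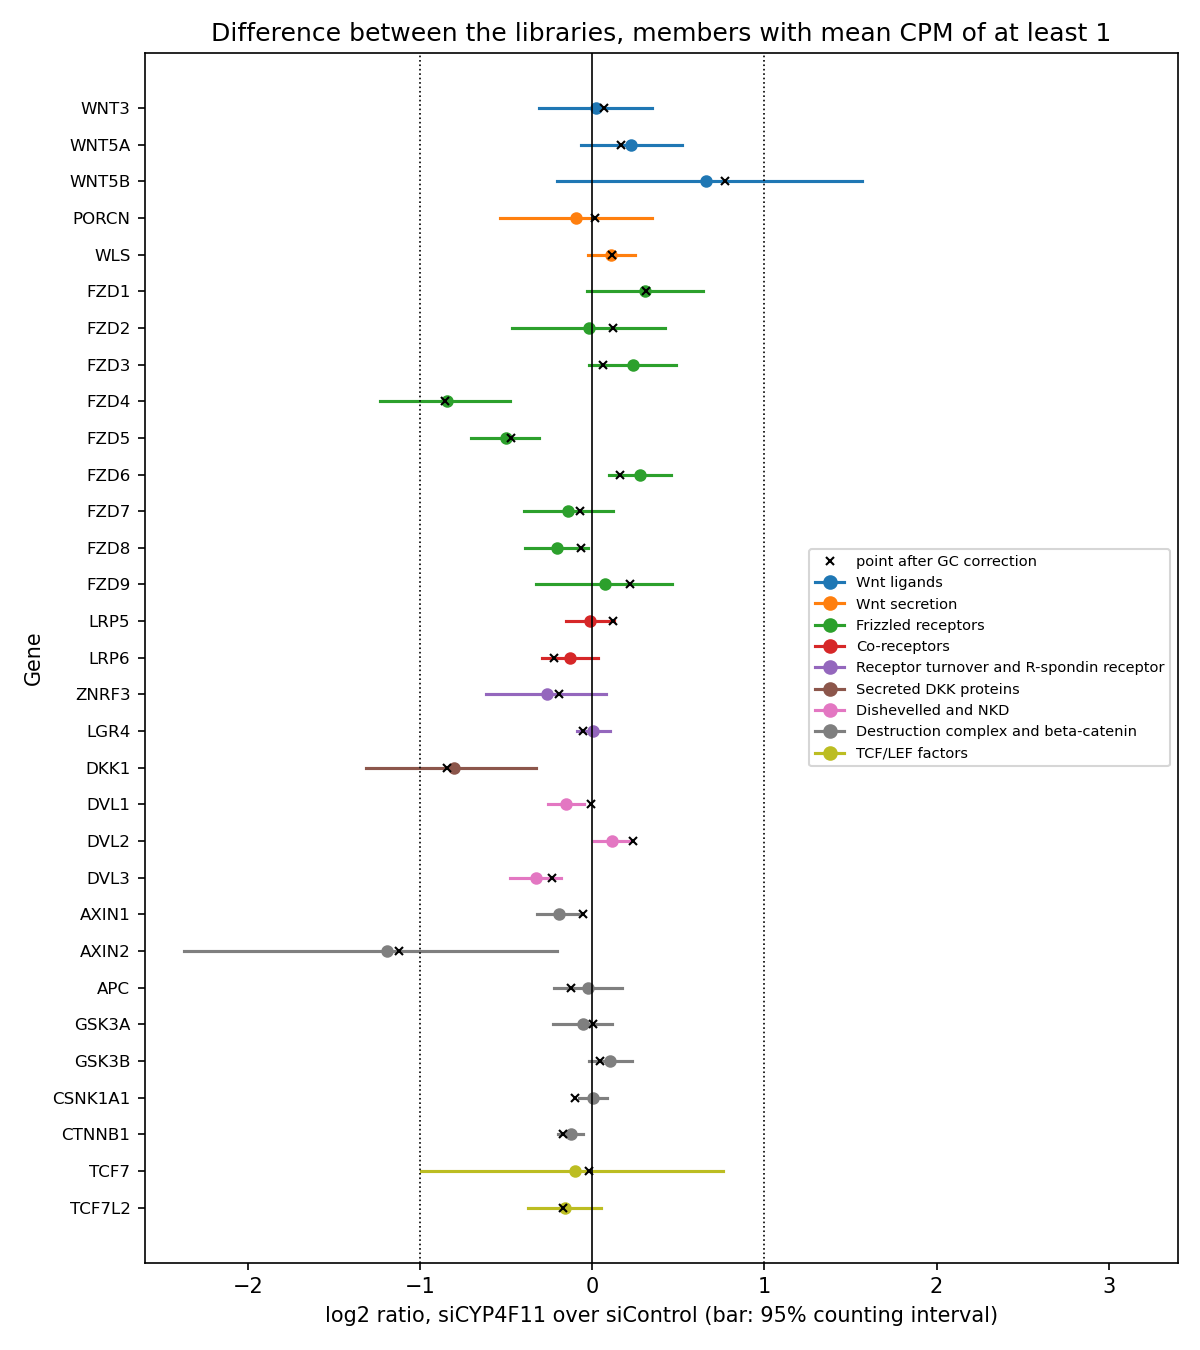
The log2 ratio of siCYP4F11 over siControl for the 31 measured members, coloured by role, with bars for the 95% counting interval, crosses for the value after correction for GC content and dotted lines at 2-fold. AXIN2 alone lies past a dotted line, and the intervals of FZD4, FZD5 and DKK1 lie wholly below 0.

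Among the member ligands, those with reads to speak of were WNT3 and WNT5A. WNT10B, a ligand with a similar number of reads that is not among the members, is described further below. WNT5A, which acts mainly through polarity signalling, had 201 counts in siControl and 190 in siCYP4F11, or 12.5 and 14.6 CPM, a log2 ratio of 0.23 (-0.07 to 0.52). WNT3, an activator of the beta-catenin branch, had 177 and 145 counts, or 10.96 and 11.11 CPM, at 0.02 (-0.31 to 0.34). Both libraries were thus close for these 2 ligands, and both intervals included 0. Per kilobase the order was WNT3 at 2.53 RPKM and WNT5A at 1.68 RPKM in siControl, and 2.56 and 1.97 RPKM in siCYP4F11. WNT5B, a close relative of WNT5A, had 21 and 27 counts, or 1.301 and 2.068 CPM, at 0.66 (-0.21 to 1.56). It had the highest log2 ratio of the measured members, yet its interval included 0.

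The other member ligands were near or below the limit of detection. WNT9A had 3 and 4 counts, WNT10A 6 and 4, and WNT11 1 and 4, siControl first. WNT7A and WNT7B had no read at all, and the floor of 3 counts stands at 0.185 CPM for siControl and at 0.231 CPM for siCYP4F11. Of the summed counts of the 8 ligands, WNT3 and WNT5A made up 43.3% and 49.1% in siControl and 38.8% and 50.8% in siCYP4F11. The 95% exact binomial intervals of each gene's share overlapped between the libraries. Summed, the 8 member ligands had 409 counts in siControl and 374 in siCYP4F11, a log2 ratio of 0.18 (-0.03 to 0.38). WNT10B, at a log2 ratio of -0.36, is in neither this sum nor these shares. They therefore describe the member list and not all ligands with reads in these cells.

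The genes for making active ligand were present in both libraries. WLS, the carrier that takes Wnt proteins to the cell surface, had 948 and 827 counts, or 58.7 and 63.3 CPM, at a log2 ratio of 0.11 (-0.03 to 0.25). PORCN, the acyltransferase that adds the lipid, had 103 and 78 counts, or 6.38 and 5.97 CPM, at -0.09 (-0.54 to 0.34). Neither interval excluded 0.

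The 9 Frizzled receptors among the members were all measured, and their values lay on both sides of 0. FZD10, which is not among them, had 0 reads in both libraries. FZD4 had 192 counts in siControl and 86 in siCYP4F11, or 11.9 and 6.59 CPM. Its log2 ratio was -0.85 (-1.24 to -0.48), which is 55.6% of the siControl level. FZD4 (chr11:86945679-86955391, minus strand, GRCh38) is a receptor for WNT ligands and for norrin, and it showed the lowest ratio of these 9. Of its exonic bases, 18.9% overlap exons of PRSS23 on the opposite strand, a gene with 294 and 304 CPM and a log2 ratio of 0.05 (-0.01 to 0.11). Whether PRSS23 reads are among the FZD4 counts cannot be told apart without the strand setting of the counting.

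FZD5 (chr2:207762586-207769563, minus strand) had 581 and 331 counts, or 35.99 and 25.36 CPM, at a log2 ratio of -0.50 (-0.70 to -0.31), which is 70.5% of the siControl level. FZD8 had 591 and 414 counts, or 36.6 and 31.7 CPM, at -0.21 (-0.39 to -0.02). FZD5 and FZD8 are the closest relatives of each other in the family, and both were lower in the siCYP4F11 library with an interval below 0. FZD6, which is linked to polarity signalling, had 505 and 495 counts, or 31.3 and 37.9 CPM, and was the receptor with an interval above 0, at 0.28 (0.10 to 0.46). The intervals of the 5 others included 0. The log2 ratios were 0.31 for FZD1, 0.24 for FZD3, 0.07 for FZD9, -0.02 for FZD2 and -0.14 for FZD7.

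Shares of the summed counts of these 9 receptors do not depend on library scaling, but they were not corrected for GC content. The share intervals of FZD4, FZD5 and FZD6 did not overlap between the libraries. Such overlap was not counted over all genes, so it has no background share. Of the log2 ratios of the 9 receptors, 4 had an interval that excluded 0, against 37.8% of all measured genes. A count of that kind is near the background. FZD6 took 18.0% of the pool's counts in siControl (16.6% to 19.5%) and 23.3% in siCYP4F11 (21.5% to 25.1%). FZD5 took 20.7% (19.2% to 22.3%) and 15.5% (14.0% to 17.2%), and FZD4 took 6.85% (5.94% to 7.85%) and 4.04% (3.24% to 4.96%). The intervals of FZD1, FZD2, FZD3, FZD7, FZD8 and FZD9 overlapped between the libraries. Per kilobase, FZD8 was the most abundant receptor in siControl at 9.08 RPKM, followed by FZD6 at 7.70 and FZD5 at 5.37. In siCYP4F11 FZD6 came first at 9.33 RPKM, followed by FZD8 at 7.87 and FZD7 at 4.33. After the GC correction described below, the log2 ratios were 0.16 (-0.02 to 0.34) for FZD6 and -0.07 (-0.25 to 0.12) for FZD8. The whole pool had 2802 counts in siControl and 2129 in siCYP4F11, a log2 ratio of -0.09 (-0.17 to -0.01).

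**Figure D3:**
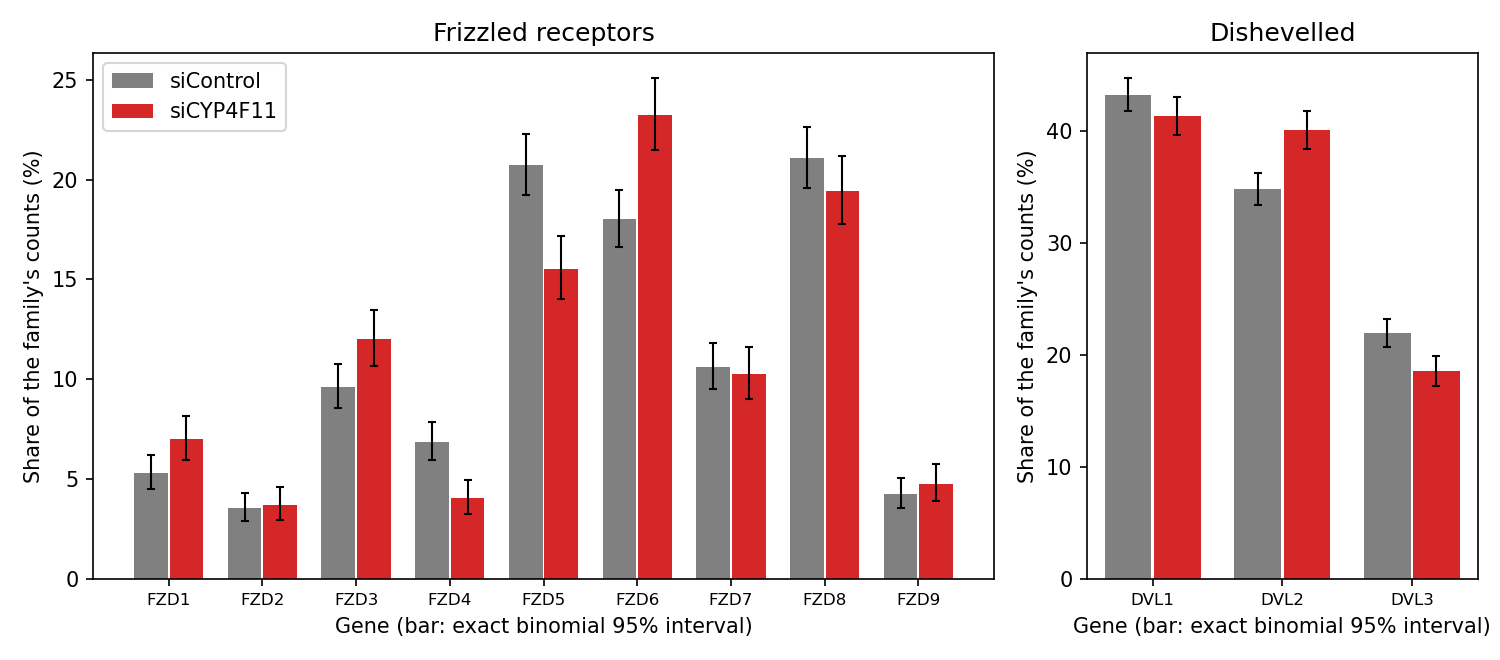
Share of each gene in the summed counts of the 9 Frizzled genes (left) and the 3 Dishevelled genes (right), in percent, with bars for exact binomial 95% intervals. The share of FZD6 was higher and those of FZD4 and FZD5 lower in siCYP4F11, and in the Dishevelled family the share of DVL2 was higher and that of DVL3 lower.

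The intervals of the co-receptors, LGR4 and ZNRF3 all included 0. LRP5 had 919 and 736 counts at a log2 ratio of -0.01 (-0.16 to 0.13), and LRP6 had 724 and 535 at -0.13 (-0.29 to 0.03). The difference between the pair, LRP6 minus LRP5, was -0.12 (-0.33 to 0.10), without correction for GC content. After the GC correction described below, LRP5 was at 0.12 (-0.02 to 0.26) and LRP6 at -0.22 (-0.39 to -0.06). LGR4, a receptor for R-spondins, which strengthen Wnt signals, was among the most abundant members, with 1931 and 1568 counts, or 119.6 and 120.1 CPM, at 0.01 (-0.09 to 0.10). ZNRF3, a ubiquitin ligase that removes Frizzled receptors from the surface and that beta-catenin induces, had 174 and 117 counts, or 10.8 and 8.96 CPM, at -0.26 (-0.62 to 0.08).

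RNF43, the partner of ZNRF3, was listed at 0 in both libraries. Of its exonic bases, 59.5% overlap exons of other genes on the same strand, AC004687.2 and SUPT4H1, and 20.3% overlap exons on the opposite strand. SUPT4H1, a transcription elongation factor used in all cells, was also listed at 0 in both libraries, and AC004687.2 had 1 and 2 counts. The 0 of RNF43 therefore cannot be read as absence of its mRNA.

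DKK1 (chr10:52314296-52318042, plus strand), a secreted antagonist of LRP5 and LRP6 and a known target of beta-catenin, was lower in the siCYP4F11 library. It had 113 counts in siControl and 52 in siCYP4F11, or 7.0 and 3.98 CPM. The log2 ratio was -0.81 (-1.32 to -0.33), which is 57.2% of the siControl level. DKK3, a relative that does not act as a plain LRP antagonist, had 5 and 7 counts and was not measured.

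Start-site windows of DKK1 and FZD4 are shown because these 2 members were past 1.5-fold with the most reads. The search covered 250 bases before to 50 after the RefSeq start on GRCh38.p14, and the 250 bases before it are printed. They lie at chr10:52314031-52314280 on the plus strand for DKK1 and at chr11:86955396-86955645 on the minus strand for FZD4. Capitals mark matches to TCF/LEF words, which were CTTTG followed by AA, AT, TA or TT, searched on both strands.
DKK1: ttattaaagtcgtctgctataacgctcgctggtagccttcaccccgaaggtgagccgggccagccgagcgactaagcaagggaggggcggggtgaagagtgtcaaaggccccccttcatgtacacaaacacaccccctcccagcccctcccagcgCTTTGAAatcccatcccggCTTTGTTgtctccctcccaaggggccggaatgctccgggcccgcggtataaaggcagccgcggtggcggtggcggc
FZD4: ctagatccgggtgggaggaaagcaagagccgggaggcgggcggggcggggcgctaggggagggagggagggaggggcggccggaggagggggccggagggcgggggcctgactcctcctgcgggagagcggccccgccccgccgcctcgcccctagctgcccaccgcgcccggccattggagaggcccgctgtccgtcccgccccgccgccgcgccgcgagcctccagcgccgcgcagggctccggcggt
The DKK1 window holds CTTTGAA 95 bases and CTTTGTT 76 bases before the start, and the FZD4 window holds none of the 4 words. Windows were found for 30 members, 40 windows in all since some genes have more than 1 start. The other members, AXIN2, NKD1 and ZNRF3 among them, had no window and were not searched. Of the 40 windows, 4 (10.0%) hold any of the words, in DKK1, TCF7, TCF7L2 and WNT3, against 13.8% of all 35116 windows. A match is only a run of letters, and binding was not measured here. GC content of the window was 63.7% for DKK1 and 79.7% for FZD4.

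The Dishevelled genes, whose products carry the signal from the receptor, differed from each other. DVL1 had 1855 and 1349 counts, or 114.9 and 103.3 CPM, at a log2 ratio of -0.15 (-0.26 to -0.05). DVL2 had 1492 and 1307 counts, or 92.4 and 100.1 CPM, at 0.12 (0.01 to 0.22). DVL3 had 941 and 605 counts, or 58.3 and 46.3 CPM, at -0.33 (-0.48 to -0.18). DVL2 was thus the member of the family with a value above 0 and DVL3 the one furthest below. The difference DVL3 minus DVL2 was -0.45 (-0.63 to -0.26) and DVL1 minus DVL2 was -0.27 (-0.42 to -0.12), and neither depends on library scaling. DVL1 minus DVL3 was 0.18 (-0.004 to 0.36). As shares of the family's counts, DVL2 had 34.8% in siControl and 40.1% in siCYP4F11, and DVL3 had 21.9% and 18.6%. Per kilobase DVL1 was the most abundant of all 41 members in both libraries, at 30.1 and 27.1 RPKM.

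NKD1, a Dishevelled-binding inhibitor and target of the pathway, had 15 counts in siControl and 9 in siCYP4F11, which was below the level set for measurement.

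In the destruction complex the values were small except for AXIN2. AXIN2 (chr17:65528563-65561647, minus strand), a scaffold like AXIN1 but induced by beta-catenin, had 32 counts in siControl and 11 in siCYP4F11, or 1.98 and 0.843 CPM. The log2 ratio was -1.19 (-2.37 to -0.21), which is 43.8% of the siControl level (19.3% to 86.5%). The interval is wide because the counts are few. Of its exonic bases, 25.2% overlap AC004805.1 on the same strand, which had 0 reads. AXIN1, the constant scaffold, had 1174 and 830 counts, or 72.7 and 63.6 CPM, at -0.19 (-0.32 to -0.06). The difference AXIN2 minus AXIN1 was -1.04 (-2.19 to -0.004).

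CTNNB1, which encodes beta-catenin, had 3596 counts in siControl and 2663 in siCYP4F11, or 223 and 204 CPM. Its log2 ratio of -0.13 (-0.20 to -0.05) corresponds to 91.6% of the siControl level, so the mRNA of the pathway's effector was nearly equal in both. The amount of beta-catenin protein, which is where the pathway is controlled, was not measured here. CSNK1A1, the casein kinase that starts the marking of beta-catenin, had 2849 and 2309 counts, or 176.5 and 176.9 CPM, at 0.00 (-0.08 to 0.08). Of its exonic bases, 37.4% overlap AC021078.1 on the same strand, which had 337 and 267 counts.

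APC, the large scaffold, had 492 and 391 counts at a log2 ratio of -0.02 (-0.22 to 0.17). The kinases were GSK3A, with 636 and 495 counts at -0.05 (-0.23 to 0.12), and GSK3B, with 1133 and 985 counts at 0.10 (-0.02 to 0.23). GSK3A minus GSK3B was -0.16 (-0.37 to 0.05), so the pair was not separated by counting error. Of the exonic bases of GSK3A, 11.6% overlap AC006486.1 on the same strand, which had 0 reads.

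TCF7L2 was the main TCF/LEF factor in these cells. It had 438 counts in siControl and 317 in siCYP4F11, or 27.1 and 24.3 CPM, at a log2 ratio of -0.16 (-0.37 to 0.05). TCF7, which beta-catenin also induces, had 28 and 21 counts at -0.10 (-0.998 to 0.76). Exons of SKP1, a gene with 120 and 144 CPM, overlap 2.1% of the TCF7 exonic bases on the opposite strand. Whether SKP1 reads are among the few TCF7 counts cannot be told apart without the strand setting of the counting. TCF7L1, often a repressor, had 8 and 6 counts, and LEF1 had 4 and 6, so neither was measured. TCF7L2 made up 91.6% of the counts of the 4 factors in siControl (88.8% to 93.95%) and 90.6% in siCYP4F11 (87.0% to 93.4%).

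Among the members, 7 are common feedback targets of beta-catenin, namely AXIN2, NKD1, RNF43, ZNRF3, LEF1, TCF7 and DKK1. Of the 4 measured, 1 was called lower, AXIN2, where 1.26% of all measured genes were. AXIN2 passed the filter through its siControl level. All 4 log2 ratios were below 0, from -1.19 to -0.10. Of all 13942 measured genes, 7083 were below 0. The intervals of AXIN2 and DKK1 lay wholly below 0, where 19.2% of all measured genes did, and those of ZNRF3 and TCF7 included 0. After the correction for GC content described below, TCF7 was at -0.02 (-0.92 to 0.84). LEF1, not measured, had more counts in siCYP4F11 than in siControl, at 6 against 4.

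Set beside genes of similar level, most members were ordinary. Over all genes with a mean from 1 to 3 CPM, the central 95% of log2 ratios ran from -1.39 to 1.17, which holds AXIN2. From 3 to 10 CPM it ran from -0.88 to 0.74, which holds FZD4 and DKK1. From 30 to 100 CPM it ran from -0.41 to 0.40, and FZD5 at -0.50 lay outside. With the levels cut in this way, FZD5 was the 1 of the 31 measured members outside the central range at its level. Its mean of 30.7 CPM is just above the cut at 30 CPM. From 10 to 30 CPM the central 95% ran from -0.57 to 0.50, which would hold it. The spread between these libraries within those ranges, counting error included, was thus as wide as the differences of AXIN2, FZD4 and DKK1. For FZD4 this depends on the cut, since its mean of 9.24 CPM is near the upper edge of its range. Its log2 ratio of -0.85 would lie outside the range from 10 to 30 CPM.

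**Figure D4:**
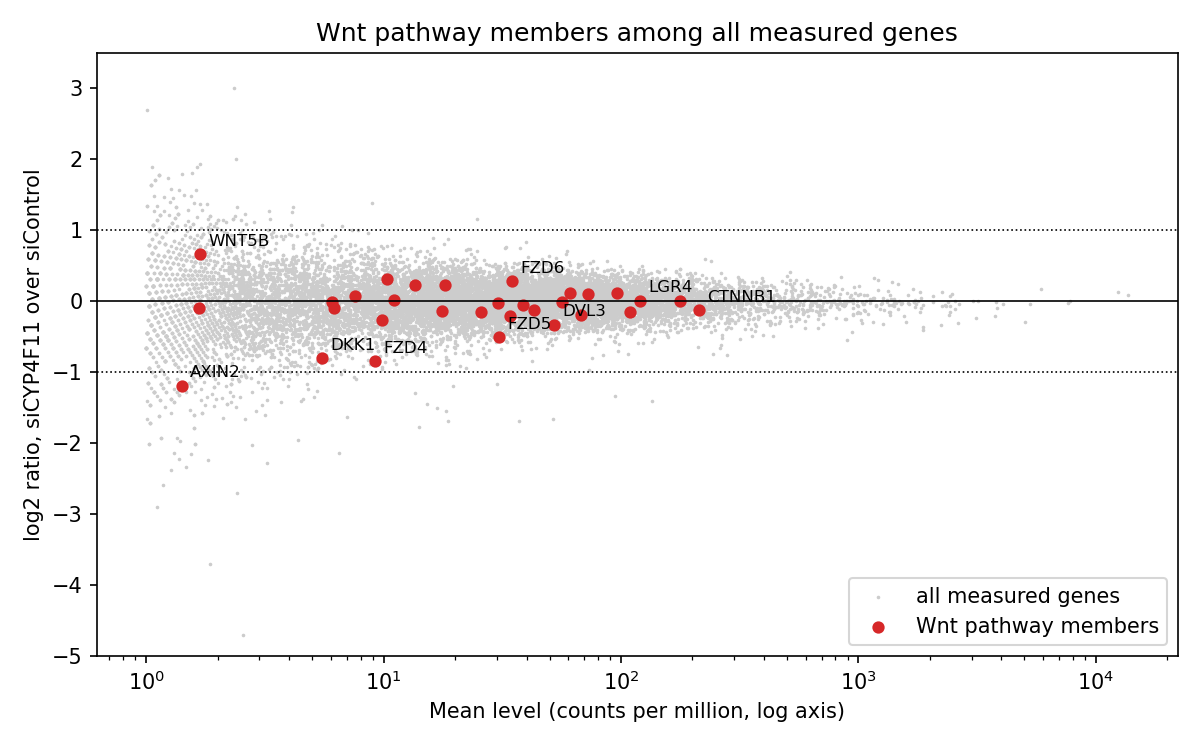
The log2 ratio of siCYP4F11 over siControl against mean level in CPM on a log axis, with all 13942 measured genes in grey and the 31 measured members in red. AXIN2, DKK1 and FZD4 lie at the lower side of the grey cloud at their levels, while CTNNB1 and LGR4 lie close to 0.

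Log2 ratios moved with transcript GC content, and this touched several members. Among genes with a mean of at least 10 CPM, split by GC content into 10 equal groups, the median went from 0.15 in the AT-richest group to -0.13 in the GC-richest. After correction for GC content, FZD4 was at -0.86, DKK1 at -0.85, AXIN2 at -1.12 and FZD5 at -0.47, and their intervals still excluded 0. DVL1, with a GC content of 67.2%, went from -0.15 to -0.01 (-0.11 to 0.09), and AXIN1, at 63.8%, went from -0.19 to -0.06 (-0.19 to 0.07). FZD8, at 64.6%, went to -0.07 (-0.25 to 0.12), and FZD6, at 38.4%, to 0.16 (-0.02 to 0.34). The values of these 4 genes thus no longer excluded 0. DVL2 was at 0.24 (0.13 to 0.34) and DVL3 at -0.24 (-0.39 to -0.09) after correction. CTNNB1 was at -0.17 (-0.24 to -0.10), and LRP6 and CSNK1A1 had intervals below 0, at -0.22 (-0.39 to -0.06) and -0.10 (-0.18 to -0.02). The cause of the relation with GC content was not tested.

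**Figure D5:**
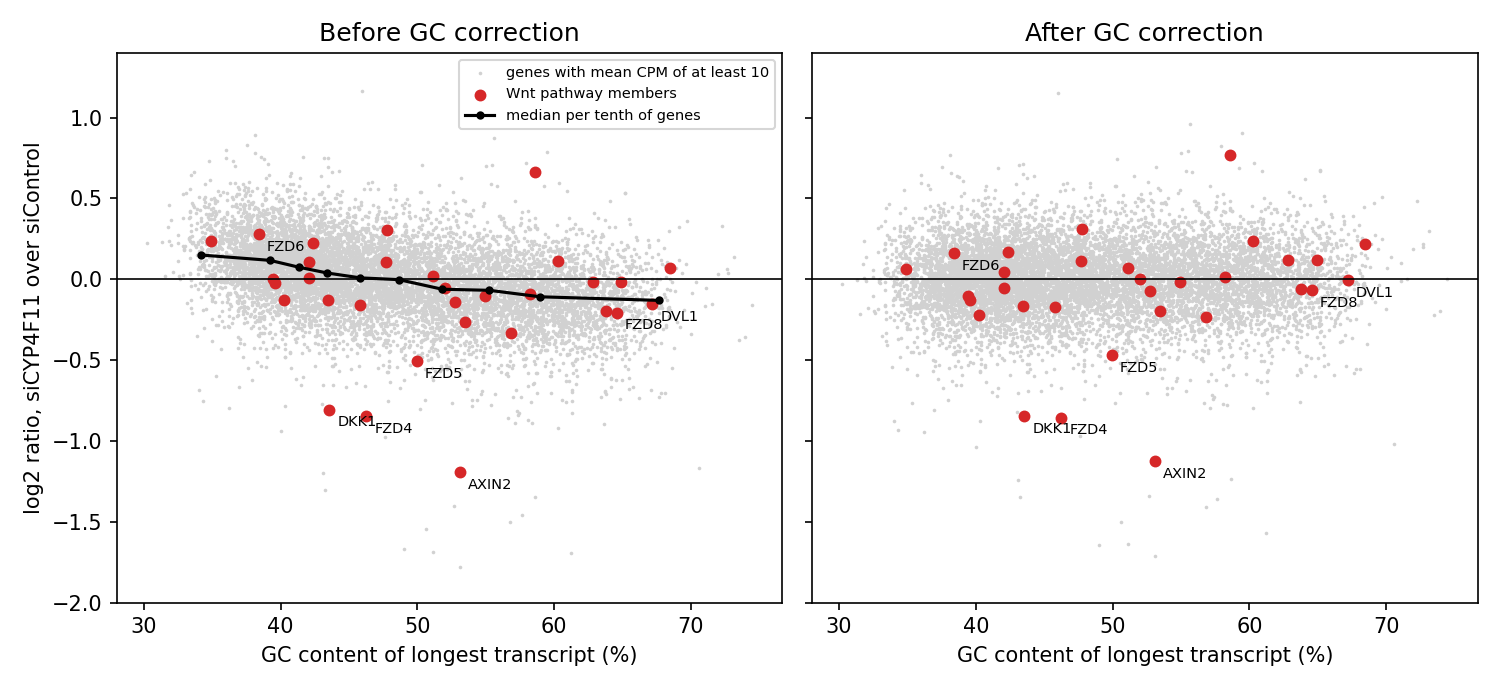
The log2 ratio of siCYP4F11 over siControl against GC content of the longest transcript in percent, before (left) and after (right) the GC correction, with genes of at least 10 CPM in grey, members in red and medians of 10 equal groups of genes in black. DVL1 and FZD8 move towards 0, while FZD4, FZD5, DKK1 and AXIN2 stay low.

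Further genes of the pathway were taken from whole lists by function, 76 of them measured besides the members. Of these 1 was called lower, LGR5, and 0 were called higher, where 1.26% and 0.703% of all measured genes were. Their median log2 ratio was -0.09, and -0.08 after GC correction. LGR5, a stem cell receptor for R-spondins and itself a target of the pathway, had 26 counts in siControl and 9 in siCYP4F11, at -1.17 (-2.50 to -0.09). Like AXIN2 it has few reads, and it passed the filter through its siControl level of 1.61 CPM, with 0.689 CPM in siCYP4F11.

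Of 11 further ligands 1 was measured, WNT10B, an activator of the beta-catenin branch. It had 217 and 137 counts, at a log2 ratio of -0.36 (-0.68 to -0.04), and -0.24 (-0.56 to 0.07) after GC correction. Of 18 further inhibitors at the surface or outside the cell 5 were measured, with a median of -0.25 and none called. Of their intervals 0 lay wholly above 0 and 3 wholly below, against 18.6% and 19.2% of all measured genes. After GC correction their median was -0.16, with 1 interval wholly above 0 and 2 wholly below. KREMEN1, a receptor for DKK1, had 128 and 62 counts, at -0.73 (-1.20 to -0.29). TRABD2A, a protease that inactivates Wnt proteins, had 75 and 38 counts, at -0.67 (-1.28 to -0.09).

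Inside the cell 23 further regulators were measured, with a median log2 ratio of 0.07 and none called. The interval of 9 lay wholly above 0 and of 2 wholly below, against 18.6% and 19.2% of all measured genes. After GC correction it was 5 and 3, against 16.8% and 17.2%. AMER1, which helps bring the destruction complex to the membrane, had 321 and 175 counts, at -0.57 (-0.84 to -0.30). CTNNBIP1, an inhibitor that keeps beta-catenin from TCF factors, had 139 and 157 counts, at 0.48 (0.14 to 0.82). In the polarity branch 11 genes were measured, with a median of -0.14, 1 interval wholly above 0, 4 wholly below and none called. After GC correction 1 of these intervals lay wholly above 0 and 3 wholly below, beside the same shares of all measured genes. PRICKLE1 was at -0.41 (-0.56 to -0.26) and SCRIB, a scaffold of cell polarity, at -0.36 (-0.49 to -0.24), which was -0.22 after GC correction.

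Of 17 nuclear cofactors of the pathway, all measured, 14 were below 0, where 7083 of all 13942 measured genes were. The list mixes genes of unlike role, with TLE1, CTBP1 and HDAC1 beside BCL9 and EP300. The interval of 8 lay wholly below 0 and of 0 wholly above, against 19.2% and 18.6% of all measured genes, and none was called. After GC correction 13 were below 0, with 8 intervals wholly below 0 and 1 wholly above. Their median was -0.18, and -0.19 after GC correction. The chromatin remodeller SMARCA4 had 2606 and 1412 counts, at -0.58 (-0.67 to -0.48), which was -0.45 after GC correction. The acetyltransferase EP300 had 1303 and 783 counts, at -0.43 (-0.56 to -0.30), which was -0.37 after GC correction. Both serve many pathways besides Wnt.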

How the data were processed

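The authors deposited 1 table of whole-number read counts per gene, not normalised, with gene model lengths in bases. Per the submitters' processing notes, the build was GRCh38 and the tools were featureCounts 2.0.6, HISAT2 2.2.1, edgeR 4.0.16 and fastp. Roles, parameters and strand setting are not given in the sources used here. The labels' protocols describe poly-A selection and dUTP libraries.

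Identifiers, symbols and coordinates of all 58735 rows equal GENCODE 29, which supplied exons and transcripts. Library sizes were scaled by TMM (edgeR 4.0.16, R 4.3.3). Log2 ratios used 0.5 added to each count, and intervals are exact Clopper-Pearson 95% intervals of the siCYP4F11 share of both counts. GC correction subtracted a lowess fit with span 0.3 over genes of at least 10 CPM. No p-value was computed, because edgeR's quasi-likelihood test needs replicates. Alternatives were other scalings (DESeq2 1.42.0 size factors among them), filters, thresholds, added counts, the GC correction and leaving out members that share over 10% of their 50-base words. Calculations ran in Python 3.11.15 and were tested on simulated data. Promoter windows came from RefSeq (GRCh38.p14).

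Members and lists were chosen with earlier results of these data known. All 41 members are described. Of each further list, up to 4 measured genes past the 2-fold rule are named, or the 2 with the largest log2 ratio.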

Additional observations from a re-analysis of the deposited data

How the results depend on the processing

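The number of members called lower was 1 and depended on the filter and the threshold. It was 0 with a mean of at least 5 CPM, 0 without members that share over 10% of their 50-base words, and 0 with an interval wholly past the 2-fold line. A 1.5-fold threshold gave 3. The first 2 settings leave AXIN2 out by construction. The number with an interval wholly above 0 went from 2 to 1 with the GC correction. Members called higher stayed at 0 under every alternative run. The median over members stayed between -0.10, as a mean, and -0.02, with the GC correction. Of 49 named genes with reads, 0 left their counting interval under the 3 other scalings or with 2 added to each count. With the GC correction 6 did, DVL1, DVL2, AXIN1, CSNK1A1, SCRIB and SMARCA4, and 7 changed sign, none of them called. No paired analysis was possible because each group has 1 library. Depth limits members below about 3 CPM most, AXIN2, TCF7 and WNT5B among them.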

Other observations

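A list of further known Wnt target genes, which holds genes that many other signals also drive, is given here by its counts. Of 24 genes 15 were measured, with 13 below 0, where 7083 of all 13942 measured genes were, a median log2 ratio of -0.30, and -0.19 after GC correction. The interval of 6 lay wholly below 0 and of 0 wholly above, against 19.2% and 18.6% of all measured genes. LGR5 was the 1 called lower, against 1.26%. After GC correction 11 were below 0, with 7 intervals wholly below 0 and 0 wholly above. The other genes named here were chosen after their values were seen. TBXT, the mesoderm factor brachyury, was the most abundant of the list, with 46855 counts in siControl and 30662 in siCYP4F11, or 2903 and 2349 CPM, at -0.31 (-0.33 to -0.28). SOX9, a factor of progenitor cells, had 1521 and 809 counts, at -0.60 (-0.73 to -0.48), and -0.56 after GC correction. CCND1, the G1 cyclin D1, was at -0.23 (-0.34 to -0.13). SNAI2 and EDN1 were the 2 genes above 0, at 0.26 (-0.13 to 0.64) and 0.11 (-0.09 to 0.32).

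Several secreted inhibitors that soak up Wnt proteins outside the cell, namely WIF1 and some of the Frizzled-related proteins, were near absent. SFRP1, SFRP2, FRZB and WIF1 had 0 reads in both libraries, and SFRP4 had 7 and 13 counts. RSPO3, an R-spondin ligand of LGR4, had 393 and 295 counts, at -0.11 (-0.33 to 0.11), while RSPO1 and RSPO4 had 0 reads and RSPO2 had 0 and 3. These genes were also named after their values were seen.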
